A study of Mus musculus with 2 samples.

Results

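The trefoil factor genes Tff1, Tff2 and Tff3 are neighbours on mouse chromosome 17, and open chromatin across them was examined in the newborn stomach. The members were chosen by name and position: all peaks and hotspots were taken that overlapped the stretch from 10 kb before the first gene to 10 kb after the last (GENCODE M21, build mm10, chr17:31115306-31175277, 59972 bp). It held 3 of 21911 protein-coding genes in full and 20 of the 105606 regions with a peak in both libraries. The end of Abcg1 (chr17:31057675-31117988) also lay in it. Accessibility was measured by DNase-seq: nuclei are treated with DNase I, which cleaves DNA not covered by nucleosomes, and the fragment ends are sequenced. The tissue was whole stomach of B6NCrl mice at postnatal day 0 (age 0 days), with no mutation or treatment named in the labels, in 1 group of 2 biological replicates. Both replicates carry the same donor label, the sex was not collected, and nothing says whether single animals or pools were used. The labels name a pair of sequencing instruments for replicate 2 and none for replicate 1. With no second group to compare, no test was made.

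Trefoil factors are small secreted peptides that share a compact looped fold held by disulfide bonds and are stored with mucins in mucous cells. They are known for helping the lining of the gut to close over small injuries. In the adult stomach Tff1 is a product of the surface mucous (pit) cells and Tff2 of the mucous neck and gland cells, while Tff3 is best known from the goblet cells of the intestine. A DNase-accessible site commonly marks a promoter, an enhancer or an insulator, but its presence does not show that the nearby gene is transcribed.

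The sequences of 3 shared regions are shown: a strong one away from any annotated start, and the regions within 1 kb upstream of a Tff start that lie outside the core promoter. Each is read 5′ to 3′ on the minus strand, the strand from which all 3 genes are transcribed, and capitals mark matches on either strand to the motifs searched, named in the motif results.
Tff2 downstream, chr17:31138516-31138665, with a CTCF match: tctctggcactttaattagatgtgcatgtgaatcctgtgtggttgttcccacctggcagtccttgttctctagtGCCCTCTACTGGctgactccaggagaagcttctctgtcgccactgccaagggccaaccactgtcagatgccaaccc
Tff2 upstream, chr17:31144756-31144905, with a TEAD match: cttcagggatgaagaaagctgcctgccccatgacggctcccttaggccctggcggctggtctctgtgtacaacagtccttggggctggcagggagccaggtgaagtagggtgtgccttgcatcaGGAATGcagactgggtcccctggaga
Tff1 near upstream, chr17:31165996-31166165, with AP-1 and SOX matches: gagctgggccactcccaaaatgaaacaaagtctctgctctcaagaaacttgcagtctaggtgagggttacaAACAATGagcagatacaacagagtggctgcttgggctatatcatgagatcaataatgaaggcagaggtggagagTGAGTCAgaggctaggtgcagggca

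The labelled tissue was first set against marker genes. All 6 stomach epithelium markers (Gkn1, Gkn2, Atp4a, Atp4b, Sox2 and Gata4) and all 3 smooth muscle markers (Myh11, Actg2 and Cnn1) had a shared promoter region, meaning a region found in both replicates within 1 kb of an annotated start, as did 66.4% of all protein-coding genes. Of the intestinal markers Cdx1 and Cdx2 neither did, although replicate 1 alone had a peak at Cdx1, and of the pancreas markers Ptf1a and Cpa1 neither did. Of the liver markers Apoa1 had one and Alb did not. The peak lists held 139374 peaks in replicate 1 and 152779 in replicate 2 on the 19 autosomes, X and Y. The peak signal is the authors' deposited value and has no stated unit or depth scaling, so raw values are given as deposited, with no scaling between replicates, and regions are ranked by the percentile within each list. The number of reads is unknown, which limits what can be said of weak sites. In a whole tissue, fewer cells with an open site and less accessibility per cell cannot be told apart.

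The cluster was densely accessible in both libraries. Replicate 1 had 24 peaks in the window and replicate 2 had 23. Of these, 21 in replicate 1 (87.5%, 95% exact binomial interval 67.6 to 97.3) and 20 in replicate 2 (87.0%, 66.4 to 97.2) overlapped a peak of the other replicate by at least 1 bp, against 77.6% of all peaks in replicate 1 and 70.7% of all peaks in replicate 2. These intervals cover counting error only, and neighbouring peaks are not independent. Joined together, the overlapping peaks made 20 shared regions, or 33.3 per 100 kb, covering 6.22% of the window. The genome as a whole held 3.87 shared regions per 100 kb, with 0.677% covered, and the median protein-coding locus with 10 kb on either side held 7.91 per 100 kb. The last region straddled the end of the window with 62 bp inside it, and 19 regions had their centre inside. The nearest shared region before the window lay 6621 bp away in Abcg1, with a mean percentile of 38.8. The nearest after it lay 7959 bp away in the neighbouring gene Tmprss3, with 96.0.

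Hotspots, the wider stretches of raised cleavage, were as frequent. There were 22 in replicate 1 and 23 in replicate 2, covering 9.53 and 9.40% of the window. Of these, 20 in replicate 1 and 21 in replicate 2 overlapped a hotspot of the other library (90.9 and 91.3%), against 79.3 and 72.3% over all hotspots, and they joined into 18 shared hotspots. Each hotspot carries the -log10 of a q value that stops at 100. In each replicate 5 hotspots of the window sat at that cap, a share of 22.7% in replicate 1 and 21.7% in replicate 2, against 38.9 and 39.4% in the whole lists. All 20 shared regions overlapped a hotspot in both replicates. No share over all shared regions stands beside this count, so it is not read as a trait of the cluster.

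**Figure D1:**
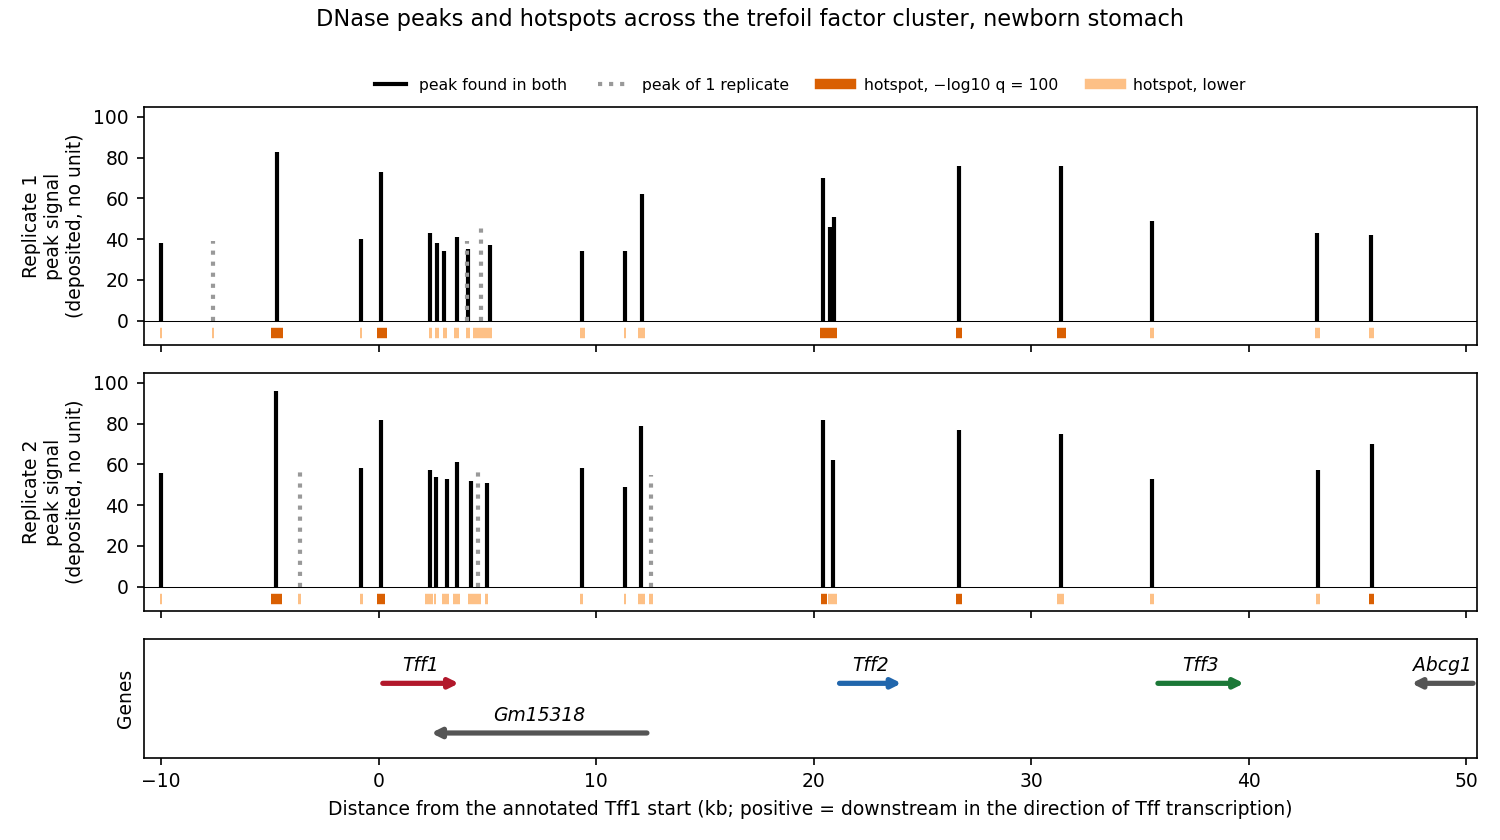
Peaks (vertical lines, height = deposited signal) and hotspots (bars under the axis) of each replicate along the cluster, by distance in kb from the start of the longer Tff1 transcript, with genes drawn in the direction of transcription. The strong sites include those at the Tff1 and Tff2 promoters and between Tff2 and Tff3; a run of weaker sites lies where Tff1 and Gm15318 overlap.

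Strong sites were about as frequent in the window as among all shared regions. In 6 of the 20 regions the signal was above the 75th percentile in both replicates, against 29.0% of all shared regions. Their mean percentiles over the replicates ran from 78.0 to 90.2, and the other 14 regions ran from 37.6 to 62.8. The median over the window was 53.5, against 61.9 over all shared regions. Above the median percentile in both replicates were 8 of the 20, against 57.6% of all. With only the stronger 50% of each peak list, 8 shared regions were left in the window, 2 of them nearest Tff1.

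All 3 members had a shared region at their promoter, against 66.4% of all protein-coding genes. A shared region implies a promoter peak in each replicate alone, which 68.2% of protein-coding genes had in replicate 1 and 69.4% in replicate 2. The genes differed in the signal there. At Tff1 (chr17:31161395-31165277, ENSMUSG00000024032.7, 3 exons in its longer transcript) the promoter region chr17:31165076-31165225 reached 73 in the first replicate and 82 in the second on the signal scale, percentiles 83.7 and 83.3. It was under a capped hotspot in both libraries, 462 and 355 bp wide. It lay in the 5′ untranslated part of the first exon of transcript Tff1-201, whose start is at 31165277. The RefSeq start is at 31165060, so the same region lies just upstream of that one. A weaker region 803 bp upstream of the GENCODE start had signals of 40 and 58, percentiles 43.4 and 58.5.

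Tff2 (chr17:31141049-31144282, ENSMUSG00000024028.7, 4 exons) also had a pair of promoter regions, and here the one farther from the start ranked higher. The farther region, 548 bp upstream (chr17:31144756-31144905), had signals of 70 in replicate 1 and 82 in replicate 2, percentiles 81.6 and 83.3. The nearer region, 138 bp upstream (chr17:31144256-31144585), had 51 and 62, percentiles 61.9 and 63.8. It was the only region in the window joined from 3 peaks, with 2 of replicate 1 on either side of a single peak of replicate 2, and the largest overlap was 70 bp. In replicate 1 a single capped hotspot of 789 bp covered both regions. In replicate 2 the farther region was under a capped hotspot of 258 bp and the nearer one under a hotspot of 440 bp with a -log10 q of 4.96.

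Tff3 (chr17:31125306-31129646, ENSMUSG00000024029.4, 3 exons) had 1 promoter region, chr17:31129636-31129805, and it was the weakest of the 3 genes' best. Its signal was 49 in replicate 1 and 53 in replicate 2, percentiles 58.9 and 51.0. Its hotspots were 168 and 148 bp wide with -log10 q of 2.72 and 2.49, far from the cap. Tff3 was the lowest of the 3 in both replicates, while Tff1 was slightly above Tff2 in replicate 1 and equal to it in replicate 2. This order rests on a pair of values per gene and was not tested.

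**Figure D2:**
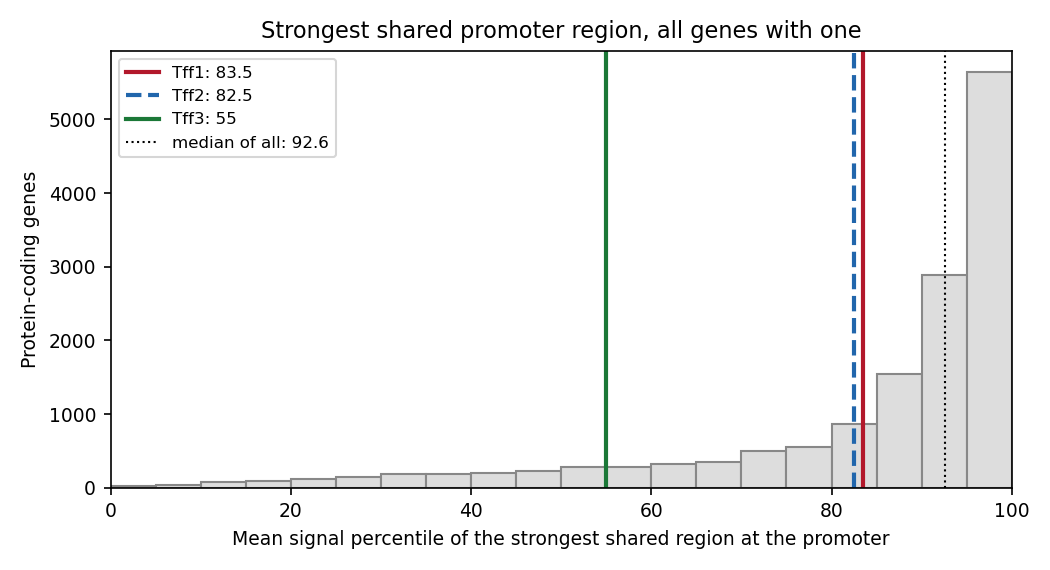
Mean signal percentile of the strongest shared region at each of the 14558 protein-coding promoters that had one (histogram), with lines for the trefoil genes. Tff1 (83.5) and Tff2 (82.5) sit together and Tff3 (55.0) lower, all to the left of the median of 92.6.

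Although open, these promoters all ranked below the median of open promoters by their best region. Averaged over the replicates, the best promoter region of Tff1 had percentile 83.5, that of Tff2 82.5 and that of Tff3 55.0, against a median of 92.6 over the 14558 protein-coding genes with an open promoter. Ranked among those genes, Tff1 was at 28.7%, Tff2 at 27.7% and Tff3 at 10.9% from the bottom. A capped hotspot in both replicates lay at the promoters of Tff1 and Tff2 and not of Tff3, against 55.3% of all protein-coding promoters.

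The promoters had few CpG dinucleotides, the DNA step that is concentrated at broadly used promoters. Within 500 bp on either side of the start the ratio of observed to expected CpG was 0.270 at Tff1, 0.166 at Tff2 and 0.156 at Tff3, against a median of 0.552 over protein-coding genes. The number of CpG was 18, 11 and 9 in that order of genes, against a median of 41. Of the 6689 protein-coding genes with a ratio no higher than that of Tff1, 23.3% had a shared promoter region, against 66.4% of all. GC content was 51.6, 51.5 and 48.0%, against a median of 54.7%.

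The regions divided unevenly among the genes. Given to the nearest Tff start, 11 of the 20 belonged to Tff1, 5 to Tff2 and 4 to Tff3. Their median percentile was 47.5 near Tff1, 78.0 near Tff2 and 57.5 near Tff3. The Tff2 median was the value of a region inside the antisense RNA gene Gm15318, 8918 bp upstream of Tff2. Within the gene body and 10 kb on either side, where regions can count for more than 1 gene, there were 13 for Tff1, 6 for Tff2 and 5 for Tff3, against a median of 4 for all protein-coding loci. Of all 20, 5 lay within 1 kb of a Tff start, 2 within 1 kb of a start of Gm15318, and 13 farther from any start.

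Weak sites lay in and beside the Tff1 gene body, where the annotated antisense RNA gene Gm15318 runs in the opposite direction (chr17:31152752-31163054). Of the 20 regions, 9 had their centre inside Gm15318, and 4 of these were also in introns of Tff1. Only 1 of the 9 was strong, an intronic region 404 bp from the nearest Gm15318 start (chr17:31153116-31153285), with signals of 62 in replicate 1 and 79 in replicate 2, just above percentile 75 in the first and at 81.1 in the second. The other 8 had mean percentiles of 37.6 to 53.9. The replicates placed several of these sites differently: at 3 of them the overlap between replicates was only 10 bp. Peaks of a single replicate lay here as well, 2 of the 3 of replicate 1 and 1 of the 3 of replicate 2. They lay between 3772 and 4452 bp downstream of the nearer of the annotated Tff1 starts (31165002). Of these, chr17:31160476-31160625 of replicate 1 and chr17:31160636-31160785 of replicate 2 each overlapped a hotspot of the other replicate. The other peak of replicate 1 overlapped none. When an overlap of at least 50% of the shorter peak was required, the window had 16 shared regions, 8 of them nearest Tff1.

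The first start of Gm15318 (31152752) had a peak in replicate 2 only (signal 55, percentile 54.2), centred 2 bp from it. Peaks of a single replicate elsewhere were 1 of replicate 1, 7593 bp upstream of Tff1 (signal 39), and 1 of replicate 2, 3633 bp upstream (signal 59). None of the 6 exceeded percentile 59.9 in its list.

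Between Tff3 and Tff2 a pair of strong sites lay away from the promoters. The region upstream of Tff3 (chr17:31133856-31134005, 4284 bp before its start) had signals of 76 in replicate 1 and 75 in replicate 2, percentiles 85.6 and 77.7. It was under a capped hotspot in replicate 1 and under one with a -log10 q of 5.30 in replicate 2. The region downstream of Tff2 (chr17:31138516-31138665, 5692 bp past its start), the first of the sequences above, had signals of 76 and 77, percentiles 85.6 and 79.4, and was capped in both. The longest stretch without a shared region, 8210 bp, lay upstream of Tff2. Past the end of Tff3, a pair of intergenic regions 7526 and 10006 bp from its start had signals of 43 and 57 and of 42 and 70 in replicates 1 and 2. The farther of the pair was nearer to an annotated start of Abcg1, at 8675 bp.

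**Figure D3:**
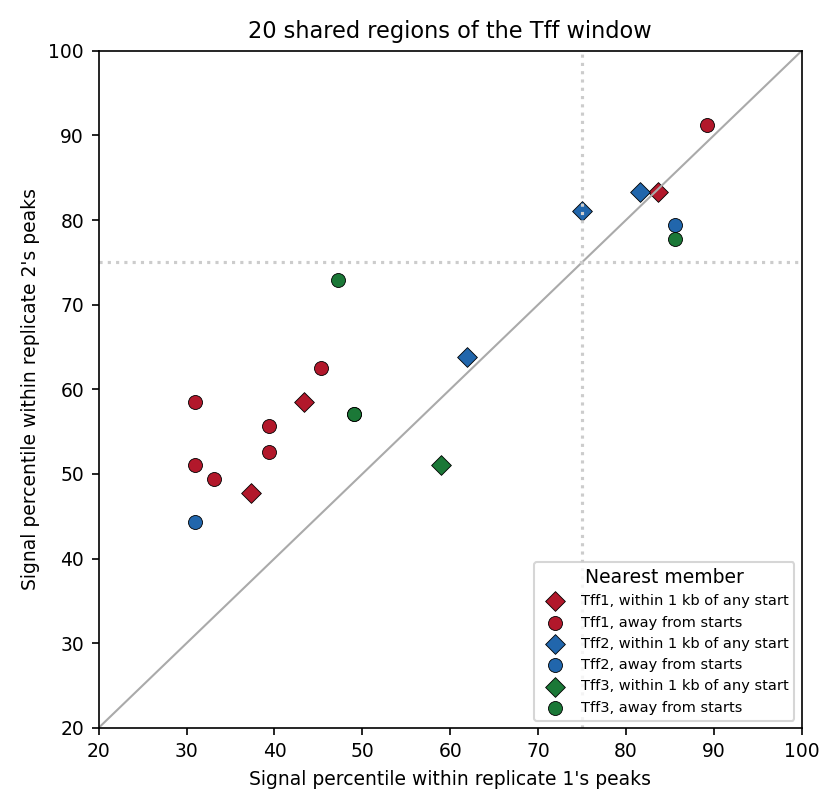
Signal percentile of each shared region of the window in replicate 1 (x axis) and replicate 2 (y axis), coloured by the nearest member, with diamonds within 1 kb of any annotated start. The 6 regions above the 75th percentile in both replicates (dotted lines) lie in the upper right corner by that rule. Most of the weaker ones lie above the diagonal. A pair of regions with equal values overlap at 49.0 and 57.1.

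The replicates were compared by percentile. The raw signal over the window was 34 to 83 with a median of 42.5 in replicate 1, and 49 to 96 with a median of 58 in replicate 2. As percentiles, all the regions outside the strong 6 ranked higher in replicate 2 except the one at the Tff3 promoter. The instruments and the unknown read numbers cannot be told apart from the replicates here.

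Motif matches were spread unevenly along the cluster. In 300 bp around the centre of each region, 14 consensus motifs were searched on both strands, and shares over all 105606 shared regions, searched the same way, stand beside them. At least 1 motif matched in 16 of the 20 regions, against 70.0% of all. AP-1 (TGANTCA), bound by Fos and Jun factors, matched in 7 of 20 regions, against 16.2% of all. Of these 7, 6 were among the 11 regions nearest Tff1 and 1 was the intronic Gm15318 region nearest Tff2, which also held FOXA. The CTCF consensus, bound by the insulator protein of that name, matched in 4 of 20, against 10.02% of all. None of these was near Tff1: 2 were nearest Tff2 and 2 nearest Tff3. One of the Tff2 matches was in the nearer promoter region, centred 15 bp upstream of the start, and the Tff3 pair were the regions past its end. Of the 4 matches, 3 read on the plus strand, and the outermost, at chr17:31119647-31119658, on the minus strand. SOX (AACAATG) matched in 3, all nearest Tff1, against 4.41% of all. In 1 of these regions both the SOX and the AP-1 match lay in the 300 bp but outside the region itself. With 150 bp searched, SOX matched in 1 of 20 regions and AP-1 in 4, against 2.39 and 12.1% of all. The stronger 50% of each peak list left 8 regions, of which SOX matched in 0 and AP-1 in 2.

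Matches to other motifs were counted in the same windows. The AGATAA string bound by Gata factors matched in none of the 20, against 15.8% of all shared regions and 15.2% of 164 windows of the cluster without a peak. FOXA (TGTTTAC or TATTTAC) matched in 2 of 20, a share near the 11.5% of all. HNF4 (CAAAGTCCA), the HNF1 consensus, GRHL (AACNGGTT) and ETS (CAGGAAGT) matched in none, against 1.27, 0.168, 3.34 and 4.55% of all. TEAD (CATTCC) matched in 5 of 20 against 16.7%, while KLF (CCACACCC), STAT (TTCNNNGAA) and E-box (CACGTG) matched in 1 each, against 5.29, 9.90 and 6.40%. No match says only that these letters are not in these 300 bp.

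The TATA box string (TATAAA), the short element that can position transcription starts, matched in 2 of 20 regions, against 12.7% of all. These were the promoter regions of Tff1 and of Tff3. On the strand of transcription the match began 30 bp upstream of the RefSeq start of Tff3 (31129611) and 21 bp upstream of that of Tff1. The GENCODE start of Tff3 lies farther upstream, and the same match is centred 8 bp downstream of it. The Tff1 match is centred 76 bp upstream of the nearer GENCODE start (31165002) and downstream of the other (31165277). Neither promoter region of Tff2 held the string. TATAAA also matched in 17.7% of 164 windows of the cluster without a peak. No motif match in the 20 regions overlapped a match of another motif.

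**Figure D4:**
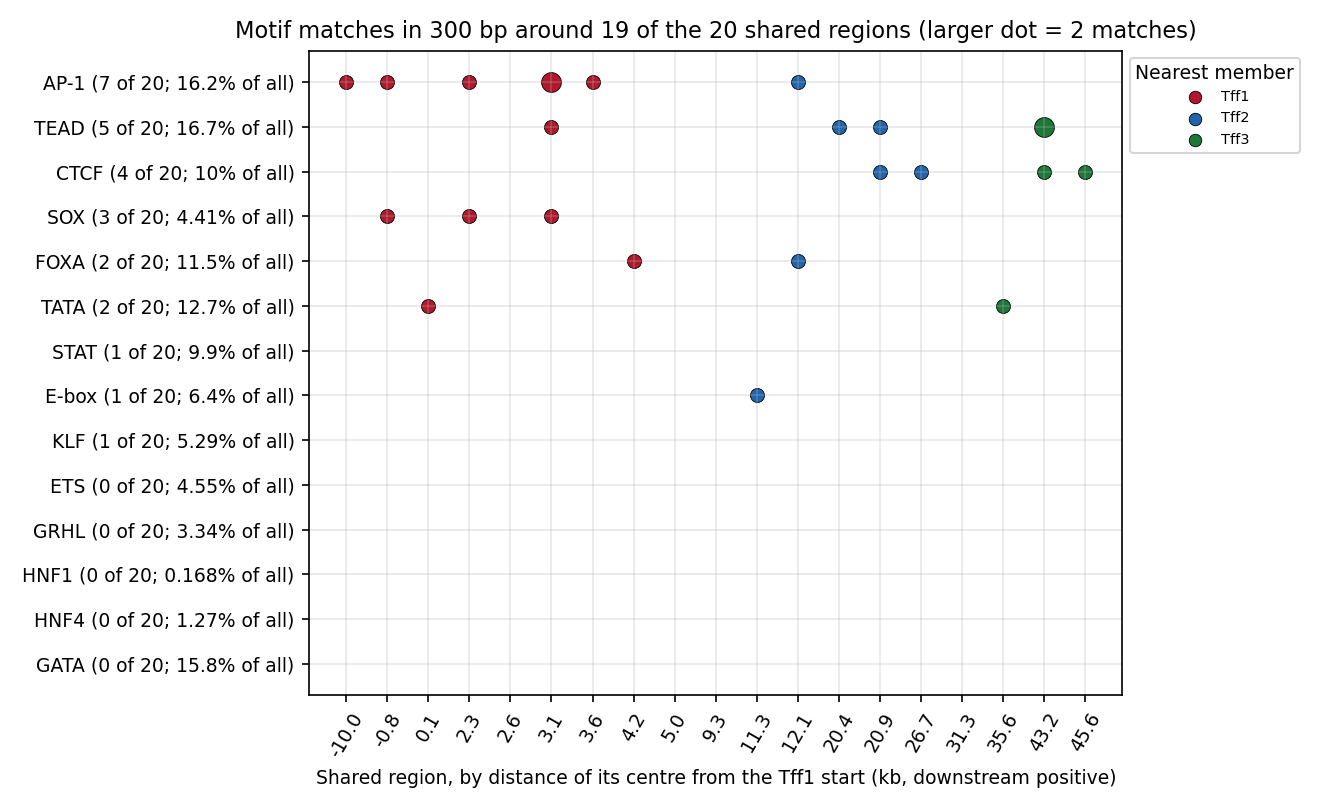
Matches to each of 14 motifs (rows, with the count of 20 regions and the share of all shared regions) in 19 of the shared regions, ordered by distance in kb from the Tff1 start and coloured by nearest member. The counts in the row labels cover all 20 regions, of which 1 is not drawn. AP-1 and SOX matches lie mostly at the Tff1 end (left) and CTCF matches at the Tff2 and Tff3 end (right).

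GC content ran from 44.1 to 60.7% with a median of 52.7%. The number of CpG per region was 0 to 6, with none in 3 regions, among them the promoter region of Tff3. Repeat-masked bases were present in 8 regions and made up more than 50% of none. At the promoter region of Tff3 they made up 47.1%. No GC, CpG or repeat values over all shared regions stand beside these, so they only describe the window.

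Of 10 genes of surface mucous cells all had a shared promoter region, against 66.4% of all protein-coding genes, and of 7 genes of mucous neck and gland cells 6 did. The exception was Aqp5, a water channel gene, where only the second replicate had a peak. Of 8 genes of intestinal goblet cells 3 did: Muc2, the main mucin of the intestine, Fcgbp, which binds TFF3 in humans, and Spdef, a secretory cell regulator. Clca1, Zg16, Retnlb, Atoh1 and Klk1 had none in either replicate. With 2.5 kb on either side of a start 5 of the 8 had a shared region, against 70% of all protein-coding genes. The best promoter regions of Muc2 and Spdef had mean percentiles of 88.5 and 94.4, and that of Fcgbp 45.2. The lists were chosen with earlier results known, so their counts are a description.

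Of 10 genes for binding partners and proposed receptors 9 had one, against 66.4% of all protein-coding genes. Gkn2, which forms a disulfide-linked partner of TFF1, had a mean percentile of 44.97, and Muc6, the mucin stored with TFF2, 43.9. Both ranked far below the chemokine receptor gene Ackr3 (97.9) and below Cxcr4 (80.9). Lingo3 had no promoter peak in either replicate. Of 17 regulators linked to Tff genes 15 had one, against the same 66.4%, with percentiles from 85.2 for Foxa2 to 99.8 for Creb1. At Gata5 only the second replicate had a peak, and at Cdx2 neither had. Gata4 (97.9), Gata6 (99.3) and Stat3 (99.3), like the other 12, ranked above the promoters of all 3 trefoil genes. So did most protein-coding genes with an open promoter, among which Tff1, the highest of the 3, was at 28.7% from the bottom.

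The cluster was set beside a pair of similar clusters of secreted mucous products, each with 10 kb on either side. The trefoil window held 20 shared regions, or 33.3 per 100 kb. The gastrokine genes Gkn1, Gkn2 and Gkn3 (chr6:87335650-87398935, 63286 bp) held 9, or 14.2 per 100 kb, and the gel-forming mucin genes Muc6, Muc2, Muc5ac and Muc5b (chr7:141623456-141883084, 259629 bp) held 24, or 9.24 per 100 kb. The median percentile per region was 53.5 at the trefoil genes, 64.5 at the gastrokines and 67.8 at the mucins. Regions above the 75th percentile in both replicates numbered 6 of 20, 3 of 9 and 5 of 24 in that order of clusters, against 29.0% of all. All genes of all 3 clusters had a shared promoter region, against 66.4% of all protein-coding genes. The lowest best percentiles among them were 43.9 at Muc6, 44.97 at Gkn2 and 55.0 at Tff3. Of the mucins, Muc5ac, stored with TFF1 in pit cells, had a best promoter percentile of 66.9 and Muc5b 95.9. These differences rest on single windows and were not tested.

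**Figure D5:**
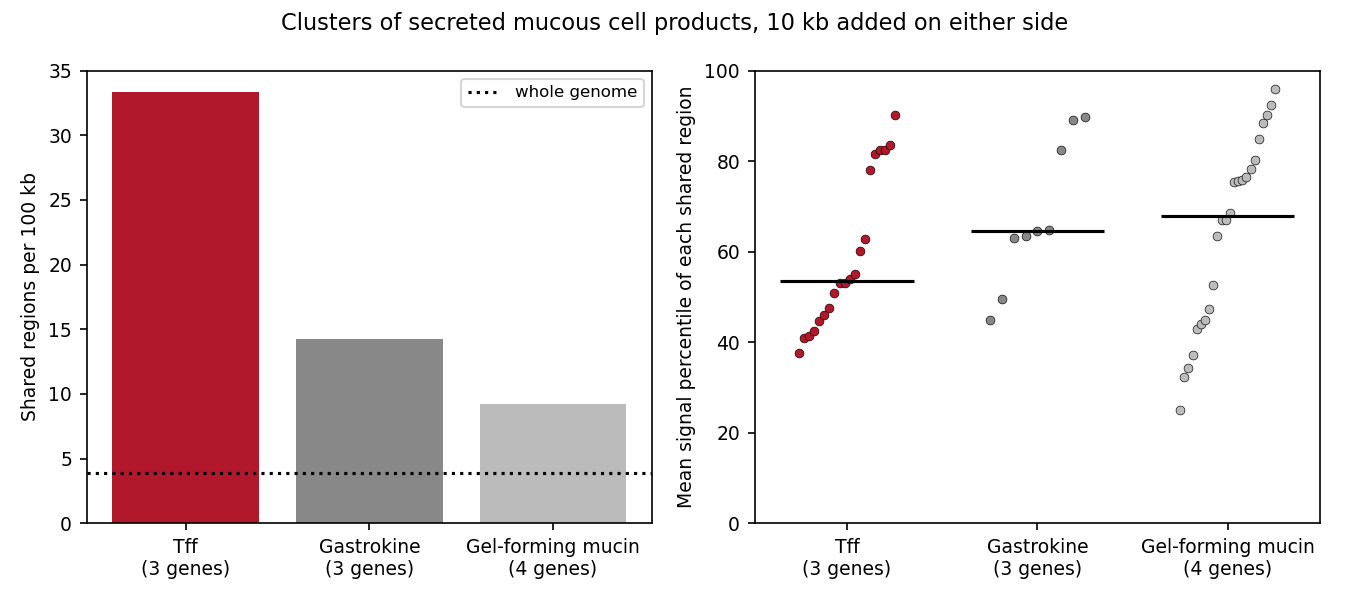
Left, shared regions per 100 kb in the trefoil, gastrokine and gel-forming mucin clusters, with the genome-wide value of 3.87 dotted. Right, mean signal percentile of each shared region (points) with the median (line): 53.5 at the trefoil cluster, 64.5 at the gastrokines and 67.8 at the mucins.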

How the data were processed

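DNase-seq of stomach tissue was used as 1 peak list and 1 hotspot list per replicate, with both replicates in 1 group per the labels. The deposited peak signal is a whole number up to 149 with no stated scaling. The hotspots carry, by the layout of the deposited files, the -log10 of a q value, from 1.30 to 100. The lists deposited with the files name build mm10 and, as input, the same replicate's filtered alignments plus a further file of unnamed role. Depth is unknown, and which aligner and caller were run is not given in the sources used here.

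Peaks on the 19 autosomes, X and Y were joined into shared regions when they overlapped by at least 1 bp (Python 3.11.15, pandas 2.3.3). Genes are those of GENCODE M21, 21911 protein-coding after 27 repeated symbols were dropped. Sequence came from RefSeq's GRCm38, the same build, read with pysam 0.24.0. The sequence of 1 region is not reported here. The RefSeq promoter table matched 0 of 3 members (Tff1, Tff2, Tff3). Joining, promoter calls and motif search were checked on simulated data. The named genes were the members, the genes overlapping the window and the listed genes. The members and lists were chosen with earlier results of these data known. Alternatives covered the overlap, signal threshold, list length, window, promoter size, motif window and single replicates.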

Additional observations from a re-analysis of the deposited data

How the results depend on the processing

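Of 96 alternative values of the main results, 86 stayed within 1.5 times the reported count or inside the interval of the reported share. Some of these could move little or only upward, so the count is not a measure of stability. Every main value run with lists of equal length was unchanged, and the wider promoter window could only add calls. With only the stronger 50% of each list, the window held 8 shared regions, 2 nearest Tff1 and 2 nearest Tff3, 7 regions had a motif match, and 40% of replicate 2's peaks in it were shared. By construction this drops the weaker sites. Requiring an overlap of 50% of the shorter peak left 66.7% of replicate 1's peaks in the window shared. The shares over all peaks were not computed under either of these rules. Whether the drop is particular to the window therefore cannot be said. Without a flank 2 regions were nearest Tff3, and with 50 kb on either side 7 were. With hotspots of -log10 q of at least 10, there were 4 shared hotspots. With a 2.5 kb promoter window 5 goblet cell genes had a shared region. All 3 members kept a promoter region under every alternative run. A replicate alone or the wider promoter window could not have lost one, because a shared region holds a peak of each replicate. Using either replicate alone gave 23 to 24 peaks in the window. Counted by centre, an alternative chosen after seeing the data, 19 regions lay in the window. Counts for single motifs are small, and 15 of 84 alternatives moved them by over 1.5 times. AP-1 matched in 4 of 20 regions over 150 bp, and in 2 of the 8 left with the stronger 50% of each list. GATA stayed at 0 in all that were run. No paired analysis was possible because there is 1 group. The unknown depth limits the weak sites.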
